A study of Mus musculus with 12 samples.

Results

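The proteasome subunit genes described here are the mouse genes whose symbols begin with Psma, Psmb, Psmc, Psmd, Psme, Psmf or Psmg followed by a digit, apart from Psmb8 and Psmb9, read from array rows annotated with exactly 1 gene symbol. There were 47 such genes among 18820 symbols with a row of their own. Each gene was represented by its row with the highest mean over the 12 arrays. The set held 16 genes of the core particle, 17 of the regulatory particle and 14 others, namely 4 activators, 1 inhibitor, 7 assembly chaperones and 2 genes for interacting proteins (Psmc3ip and Psme3ip1) that the symbol rule takes in although they encode no subunit. Rows annotated with a second gene, which included the row for Psma4, were left out by the rule.

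The arrays measured total RNA from the nucleus accumbens (ventral striatum) of adult C57BL/6N mice at 12 weeks of age. Control offspring (6 arrays) came from dams given saline intravenously on gestation day 17. Poly(I:C) offspring (6 arrays) came from dams given 5 mg/kg of poly(I:C), a double-stranded RNA analog that sets off an antiviral response, by the same route on the same day, and are called exposed offspring. All offspring had gone through cognitive and behavioural tests before dissection, and the tissue pooled the core and shell of the accumbens from 1-mm slices. The titles number the arrays of each group 1 to 6 as biological replicates, and the sources used here do not say whether offspring shared a litter or were of one sex, so the p-values measure only the spread between these arrays. The question is whether maternal immune activation before birth leaves a difference in accumbens transcripts at adulthood.

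The proteasome degrades proteins that carry a chain of ubiquitin. Its core particle is a barrel of stacked rings, with outer alpha rings (Psma genes) that gate the entrance and inner beta rings (Psmb genes) that hold the cutting sites. The regulatory particle caps the barrel: its base (Psmc ATPases with Psmd1, Psmd2 and Psmd4) binds, unfolds and feeds in the substrate, and its lid (most other Psmd genes) removes the ubiquitin chain. In neurons the proteasome takes part in protein turnover at synapses, and interferon can exchange the catalytic core subunits for the inducible ones Psmb8, Psmb9 and Psmb10.

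A value here is an RMA-normalized log2 level, with array medians from 4.78 to 4.85 and correlations between arrays from 0.991 to 0.997. Of 8 medium spiny neuron markers, the principal neurons of the accumbens, 6 were measured, and their mean was 9.49 ± 0.20 in controls and 9.53 ± 0.14 in the exposed group (SD, n = 6 arrays per group here and throughout). Marker means of neighbouring tissue and of glia were compared as well. For 8 genes of cortical glutamatergic neurons the mean was 5.76 ± 0.43 in controls (5.32 to 6.48) and 6.25 ± 0.32 in the exposed group (5.83 to 6.65), and 7 of the 8 were higher in value. For 10 genes of choroid plexus and ependyma it was 5.47 ± 0.63 (4.90 to 6.46) and 4.87 ± 0.09 (4.77 to 4.99), with 10 of 10 lower in value. The mean of 7 oligodendrocyte genes was 8.16 ± 0.24 (7.85 to 8.48) and 7.78 ± 0.06 (7.72 to 7.88), with 7 of 7 lower in value and 1 past the adjusted threshold (limma). The means of septal and pallidal (6.16 and 6.08), microglial (6.44 and 6.39), astrocyte (8.03 and 8.05) and endothelial genes (6.56 and 6.55) lay closer together. The part of these tissue differences in the proteasome values was not tested directly; a fit that holds 3 of the marker means as terms (cortical, septal and pallidal, and choroid plexus with ependyma; the 3 tissue means) is given for the genes whose values in every array are described, where it moved the difference by over 1.5 times. Of these terms, the cortical mean and the mean of choroid plexus with ependyma themselves differed in value between the groups. That fit therefore cannot fully part exposure from these means. The oligodendrocyte mean was not among its terms. In a dissected tissue, fewer cells of a type and less RNA per cell cannot be told apart.

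No proteasome gene passed the test of exposed against control offspring. In limma with Benjamini-Hochberg adjustment over all 21218 rows, 0 of the 47 genes reached an adjusted p under 0.05, where 13 rows did in all (0.0613%), and the adjusted p-values of the 47 ran from 0.115 to 0.989. At an unadjusted p under 0.05 there were 6 genes (12.8%), against 14.4% of all rows tested and 19.8% of the rows above the median level of 5.47, to which 42 of the 47 belonged. The ranges of the groups did not separate for any of the 47, where 1.13% of all rows did. Of the 6 genes, 2 were higher in value in the exposed group (Psmd7 and Psme1; 7.83% of all rows were higher at that p) and 4 lower (Psma1, Psma2, Psmd10 and Psmg1; 6.57% of all rows).

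Psma1 and Psmd7 had an unadjusted p under 0.05 (limma) in each of the 12 fits with 1 array left out. Which other genes reach the unadjusted threshold varied with single arrays. The count of 2 higher genes became 1 when control 1, control 3 or poly(I:C) 1, 2, 4 or 5 was left out, and 4, 5 and 6 without control 2, control 5 and poly(I:C) 6. The count of 4 lower genes became 1 without control 1 or poly(I:C) 5, and 2 when control 2, 4, 5 or 6 or poly(I:C) 4 or 6 was left out. The share of all rows at that p, both directions together, moved in these fits too. It was 12.68% without control 2, 14.73% without control 5 and 16.02% without poly(I:C) 6. It was 14.84% without control 1 and 13.08% without poly(I:C) 5. The lowest share was 11.05% without poly(I:C) 4 and the highest 17.13% without control 3. Whether the counts moved apart from this share was not tested. The number past the adjusted threshold was 0 under each of the 12 leave-one-out settings.

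Differences were small across the set. The median log2 difference, exposed minus control, was 0.01 over the 47 genes, 0.0016 over all rows and 0.02 over the rows above the median level. The median of the absolute differences was 0.055, 0.048 and 0.066 in the same order. A difference beyond 0.1 in either direction was seen in 7 of the 47 genes (14.9%), against 21.9% of all rows and 32.4% of the rows above the median level. For 39 of the 47 genes (83.0%) the 95% interval of the difference lay within 0.25 of 0 on the log2 scale. That bound is a level 18.9% higher or 15.9% lower. It was met by 81.4% of all rows and 70.9% of the rows above the median level, so the share of the 47 was near that of all rows. Among the 47 the exceptions were Psma1, Psma3, Psma6, Psmb2, Psmb4, Psmd5, Psmd7 and Psmg1. For these 8 genes larger differences are within the error of the arrays.

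**Figure D1:**
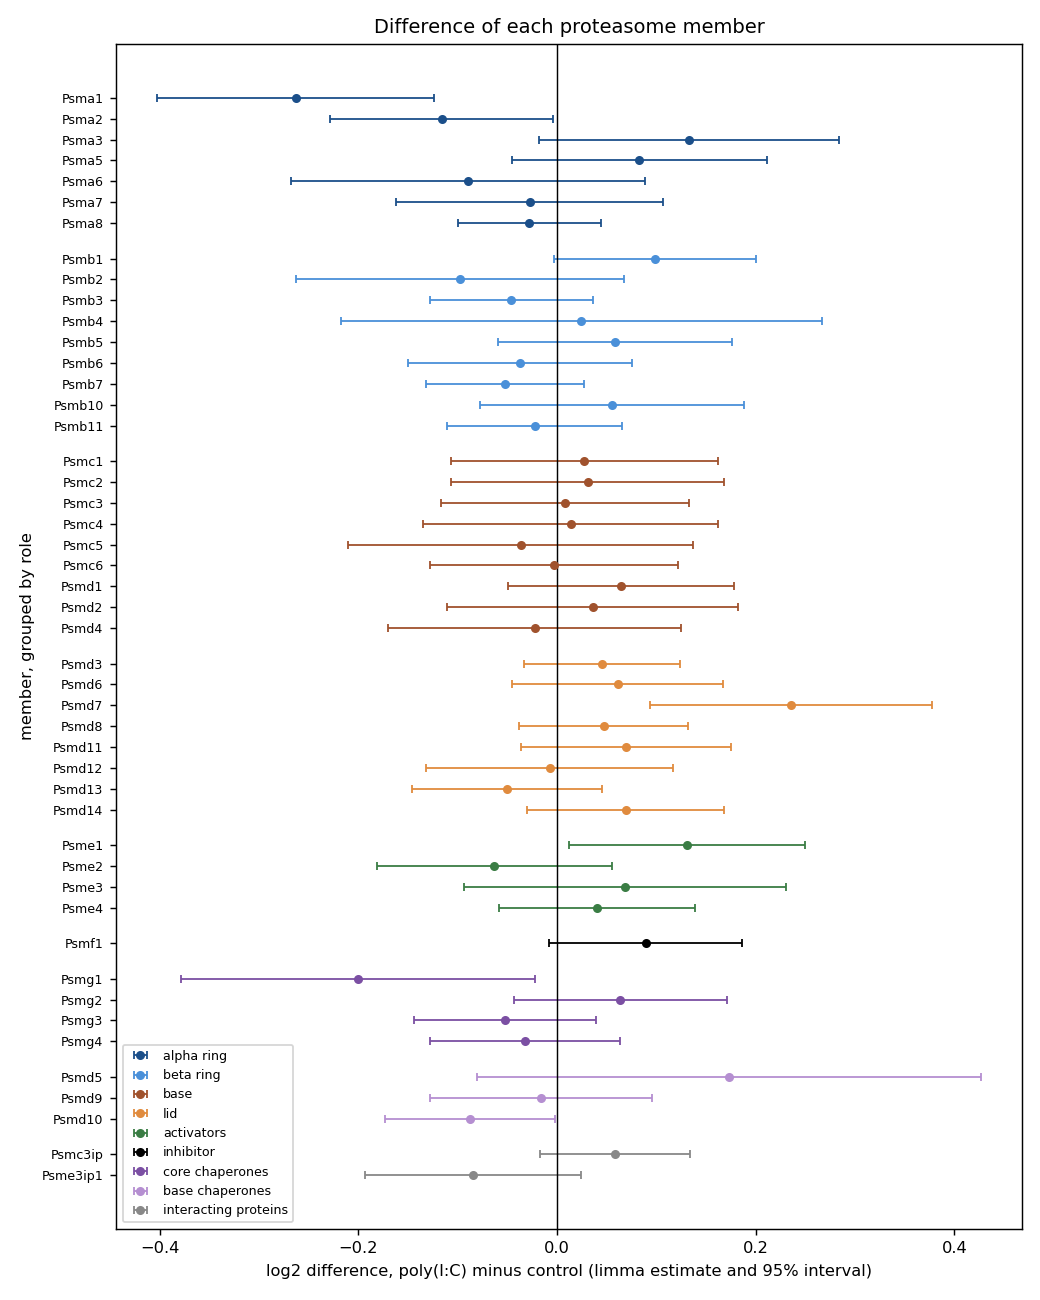
Log2 difference (poly(I:C) minus control, horizontal axis) of each of the 47 proteasome genes with its 95% limma interval, grouped by role on the vertical axis. The points lie between -0.26 (Psma1) and 0.24 (Psmd7), and 6 intervals exclude 0 before adjustment for the number of rows.

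In the core particle, 6 of 16 genes were higher and 10 lower in value, with a median difference of -0.03. The median was 0.0016 over all rows and 0.02 over the rows above the median level, of which 59.5% were higher. Of the 16 genes, 2 had an unadjusted p under 0.05 (12.5%, limma), both lower and both of the alpha ring. That share was 14.4% over all rows and 19.8% over the rows above the median level. The mean level of the 16 genes was 7.59 ± 0.05 in controls (7.54 to 7.67) and 7.57 ± 0.06 in the exposed group (7.46 to 7.61), so the groups overlapped. The median of the core genes was -0.0099 without control 1, -0.02 without control 4, -0.05 without control 6, -0.01 with array weights and -0.06 with the 3 tissue means held, and so kept its sign. The alpha ring, which opens or closes the channel into the barrel, gave differences from -0.26 to 0.13 over 7 genes. The beta ring gave a narrower span, from -0.10 to 0.10 over 9 genes.

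Psma1, an alpha ring gene, had the smallest p of the set. Its level was 8.37 at the lowest, 8.58 at the median and 8.68 at the highest in controls, and 8.15, 8.28 and 8.49 in the exposed group. In 5 of 6 poly(I:C) arrays it lay below the lowest control, and the exception, poly(I:C) 1 at 8.49, lay above control 2 (8.41) and control 6 (8.37). The group means were 8.55 ± 0.13 and 8.28 ± 0.12, a log2 difference of -0.26 (95% limits -0.40 and -0.12, limma adjusted p = 0.115). The difference was -0.30 (adjusted p = 0.435) in the fit that held the 3 tissue means.

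Psma2, the second alpha ring gene under the unadjusted threshold, was at 7.13, 7.22 and 7.26 in controls (lowest, median, highest) and 6.86, 7.10 and 7.20 in the exposed group. The groups overlapped, and poly(I:C) 6 at 6.86 stood apart from the 5 other arrays of its group, which were at 7.08 or more. The log2 difference was -0.12 (95% limits -0.23 and -0.0036, limma adjusted p = 0.334), -0.07 (adjusted p = 0.390) without poly(I:C) 6, and -0.20 (adjusted p = 0.435) with the 3 tissue means held.

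Other alpha ring genes pointed in either direction. Psma3 was at 8.74 ± 0.18 and 8.87 ± 0.06, a log2 difference of 0.13 (95% limits -0.02 and 0.28), with control 1 at 8.49 and control 4 at 8.53 below each of the other 10 arrays. Psma5 gave 0.08, Psma6 -0.09 and Psma7 -0.03. Psma8, a subunit known from the testis, was dim in all 12 arrays (3.27 ± 0.04 and 3.24 ± 0.05) and gave -0.03.

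For the 3 constitutive cutting subunits the differences were smaller than the spread between arrays or close to it. Psmb5, which carries the chymotrypsin-like site, was at 9.73, 9.90 and 10.08 in controls (lowest, median, highest) and 9.90, 9.96 and 10.04 in the exposed group, a log2 difference of 0.06 (95% limits -0.06 and 0.18, limma adjusted p = 0.664). Psmb6, with the caspase-like site, was at 7.85, 7.95 and 8.13 in controls and 7.82, 7.94 and 8.05 in the exposed group, a difference of -0.04 (-0.15 to 0.08, adjusted p = 0.792). All 6 poly(I:C) arrays lay within the control range for Psmb5, and 1 lay below it for Psmb6. Single arrays moved both small differences by over 1.5 times. Psmb5 was at 0.04 without control 1, 0.02 without control 4 and 0.10 without control 3, and Psmb6 ran from -0.0065 without control 4 to -0.06 without control 6, with -0.02 without control 1, -0.06 without poly(I:C) 3 and -0.01 without poly(I:C) 6. With the 3 tissue means held, Psmb5 gave 0.04 and Psmb6 -0.09, and no adjusted p of these fits was under 0.05 in limma.

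Psmb7, with the trypsin-like site, was at 8.11, 8.17 and 8.24 in controls and 8.04, 8.11 and 8.20 in the exposed group, with 3 of 6 poly(I:C) arrays below the lowest control. Its log2 difference was -0.05 (95% limits -0.13 and 0.03, limma adjusted p = 0.550), and -0.08 with the 3 tissue means held. Psmb10, the inducible subunit that takes the place of Psmb7, was at 6.46, 6.70 and 6.84 in controls and 6.58, 6.72 and 6.85 in the exposed group, a difference of 0.06 (-0.08 to 0.19, adjusted p = 0.728). For Psmb10 it was 0.01 without control 2, 0.03 without poly(I:C) 1, 0.08 without poly(I:C) 6, 0.09 without control 1 and 0.11 with array weights, and 0.03 with the 3 tissue means held.

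The inducible subunits that replace Psmb6 and Psmb5 were read from the same table for comparison. Psmb9 was at 5.40 ± 0.08 in controls and 5.34 ± 0.06 in the exposed group, a log2 difference of -0.06 (95% limits -0.15 and 0.03). Psmb8 was at 3.98 ± 0.05 and 3.96 ± 0.08, a difference of -0.03 (-0.12 to 0.06). Psmb8 gave -0.09 with the 3 tissue means held, -0.02 when control 1, control 2 or poly(I:C) 6 was left out, and -0.0055 without poly(I:C) 1, and Psmb9 gave -0.04 without control 5. Both rows had means under the median level of all tested rows (5.47). Psmb11, the thymus-specific counterpart of Psmb5, was likewise dim and gave -0.02.

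Among the beta subunits with no cutting site, Psmb1 had the smallest p. It was at 7.77, 7.91 and 7.99 in controls and 7.87, 8.02 and 8.08 in the exposed group, and 3 of 6 poly(I:C) arrays were above the highest control. The log2 difference was 0.10 (95% limits -0.0033 and 0.20, limma adjusted p = 0.363), and 0.04 (adjusted p = 0.923) with the 3 tissue means held. Psmb2 gave -0.10, Psmb3 -0.05 and Psmb4 0.02. Psmb4 had the widest spread of the beta ring in the exposed group (8.86 ± 0.28), with poly(I:C) 6 at 8.30 and the 5 other arrays of the group at 8.93 or more.

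**Figure D2:**
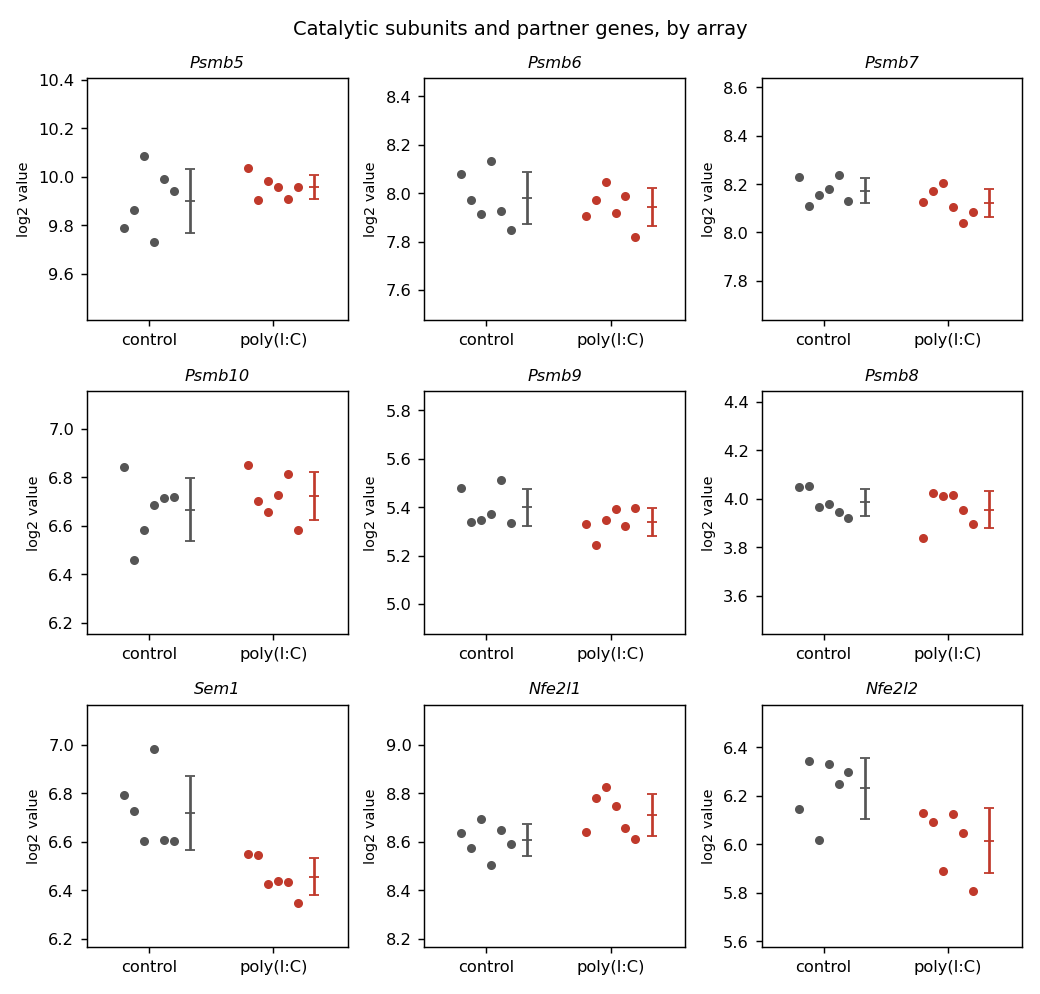
Log2 level (vertical axis, 1 log2 unit high in each panel) in each control (grey) and poly(I:C) (red) array for the catalytic core subunits Psmb5, Psmb6, Psmb7 and Psmb10, the inducible Psmb8 and Psmb9, and the partner genes Sem1, Nfe2l1 and Nfe2l2; points run from replicate 1 to 6, and the bars give mean and SD. The ranges of the 2 groups overlap in all panels but that of Sem1.

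In the regulatory particle, 12 of 17 genes were higher and 5 lower in value, with a median difference of 0.03. Of the 17 genes, 1 (Psmd7) had an unadjusted p under 0.05 (5.88%, limma), against 14.4% of all rows and 19.8% of the rows above the median level. The mean level was 7.63 ± 0.04 in controls (7.58 to 7.68) and 7.66 ± 0.09 in the exposed group (7.50 to 7.75). All rows above the median level were also tilted, with 59.5% higher in value and a median of 0.02. The direction was not stable: without poly(I:C) 6, 16 of 17 genes were higher, with a median of 0.07 (63.6% and 0.03 over the rows above the median level), and without poly(I:C) 2 the median was -0.0045. It was 0.05 without control 1, 0.05 without poly(I:C) 1 and 0.02 without poly(I:C) 4. With the 3 tissue means as terms 14 of 17 were lower, with a median of -0.088 (52.4% lower and -0.0050 over the rows above the median level). The cortical and the choroid plexus with ependyma means differed in value between the groups, so this fit cannot fully part them from exposure. In that fit 10 of the 47 members were lower and 0 higher at an unadjusted p under 0.05, against 8.78% of all rows and 12.6% of the rows above the median level in either direction, and 0 members and 0 rows passed the adjusted threshold in limma; the 10 included the ATPase genes Psmc4 and Psmc5, the ubiquitin receptor Psmd4 and the alpha ring genes Psma1, Psma2 and Psma6.

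Psmd7, a lid subunit that pairs with the deubiquitinating enzyme Psmd14, had the largest positive difference of the set. It was at 7.65, 7.69 and 7.78 in controls (lowest, median, highest) and 7.73, 7.97 and 8.16 in the exposed group. Of the poly(I:C) arrays, 4 lay between 7.97 and 8.16, above each control, whereas poly(I:C) 1 (7.74) and poly(I:C) 6 (7.73) lay within the control range. The group means were 7.70 ± 0.05 and 7.93 ± 0.17, a log2 difference of 0.24 (95% limits 0.09 and 0.38, limma adjusted p = 0.155). The difference was 0.28 (adjusted p = 0.0784) without poly(I:C) 6 and 0.17 (adjusted p = 0.609) once the 3 tissue means were added.

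Psmd14 itself, the enzyme that cuts off the ubiquitin chain, was at 8.51, 8.62 and 8.79 in controls and 8.65, 8.70 and 8.73 in the exposed group, so all 6 poly(I:C) arrays lay within the control range. Its log2 difference was 0.07 (95% limits -0.03 and 0.17, limma adjusted p = 0.521). Psmd11, a lid scaffold subunit, was at 7.42, 7.56 and 7.59 in controls and 7.43, 7.64 and 7.69 in the exposed group, with 4 of 6 arrays above the highest control and poly(I:C) 6 near the bottom. It gave 0.07 (-0.04 to 0.17, adjusted p = 0.547), 0.05 without control 4, and -0.04 with the tissue means as terms.

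The other lid genes spanned -0.05 (Psmd13) to 0.06 (Psmd6), with Psmd3 and Psmd8 at 0.05 and Psmd12 at -0.01. Across the base the differences ran from -0.04 (Psmc5) to 0.06 (Psmd1), and 6 of 9 genes were higher in value. The ATPases Psmc1, Psmc2, Psmc3 and Psmc4 gave 0.03, 0.03, 0.01 and 0.01, and Psmc6 gave -0.0032. Psmd2, a scaffold that docks shuttle proteins, gave 0.04 and the ubiquitin receptor Psmd4 gave -0.02. None of the 9 base genes had an unadjusted p under 0.05 (limma), against 14.4% of all rows, and none had an adjusted p under 0.05. All 9 intervals lay within 0.25 of 0, as did 81.4% of all rows and 70.9% of the rows above the median level.

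**Figure D3:**
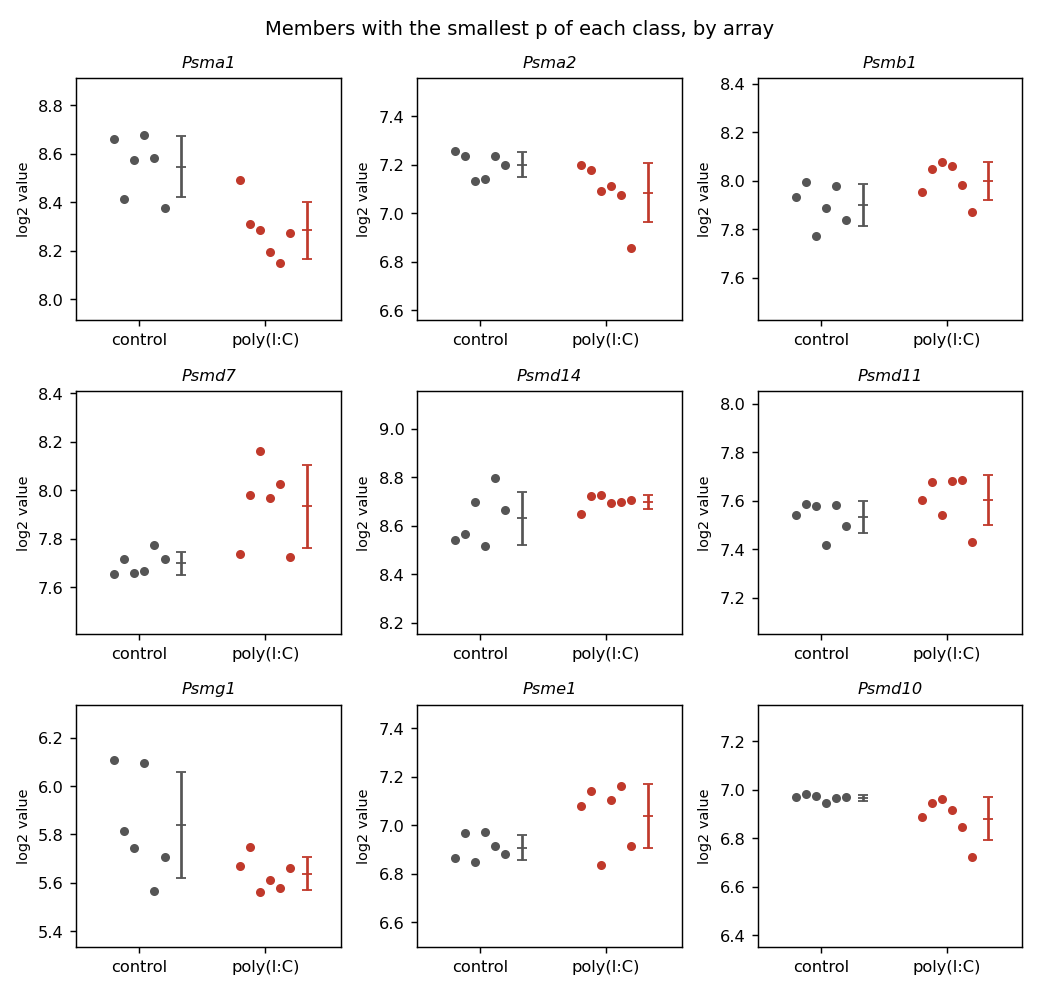
Log2 level (vertical axis, 1 log2 unit high in each panel) in each control (grey) and poly(I:C) (red) array for the 3 genes with the smallest p of the core particle (Psma1, Psma2, Psmb1), of the regulatory particle (Psmd7, Psmd14, Psmd11) and of the other members (Psmg1, Psme1, Psmd10); points run from replicate 1 to 6 and bars give mean and SD. The groups overlap in each panel, and 5 of 6 poly(I:C) arrays lie below the lowest control for Psma1 and Psmd10. For Psmd10 the highest of these 5 (6.9444) is almost level with the lowest control (6.9445).

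The activators open the core barrel without the need for ubiquitin. Psme1, which forms a mixed ring with Psme2, was at 6.85, 6.90 and 6.97 in controls and 6.84, 7.09 and 7.16 in the exposed group, with 4 of 6 poly(I:C) arrays above the highest control and poly(I:C) 3 below the lowest. The log2 difference was 0.13 (95% limits 0.01 and 0.25, limma adjusted p = 0.305). Its partner Psme2 gave -0.06 (-0.18 to 0.06), with 3 of 6 poly(I:C) arrays below the lowest control. The nuclear activator Psme3 and Psme4 gave 0.07 and 0.04.

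Psmf1, which encodes an inhibitor of the core particle, was at 7.04 ± 0.06 in controls and 7.13 ± 0.09 in the exposed group, a log2 difference of 0.09 (95% limits -0.01 and 0.19, limma adjusted p = 0.389). In 4 of 6 poly(I:C) arrays it lay above the highest control.

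Of the 7 assembly chaperones 0 passed the adjusted threshold in limma, and Psmg1 and Psmd10 were lower at an unadjusted p under 0.05, as were 6.57% of all rows. Psmg1, which with Psmg2 helps to build the alpha ring, was at 5.57, 5.78 and 6.11 in controls and 5.56, 5.64 and 5.75 in the exposed group. The controls were spread out, with control 1 at 6.11 and control 4 at 6.09 above the other 4 (5.57 to 5.82), and 1 of 6 poly(I:C) arrays was below the lowest control. The log2 difference was -0.20 (95% limits -0.38 and -0.02, limma adjusted p = 0.297). Psmg2 gave 0.06, and the second pair of core chaperones, Psmg3 and Psmg4, gave -0.05 and -0.03.

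Psmd10, a chaperone of the base also known as gankyrin, was tightly grouped in controls (6.94, 6.97 and 6.98) and lower and wider in the exposed group (6.72, 6.90 and 6.96). In 5 of 6 poly(I:C) arrays it lay below the lowest control, but poly(I:C) 2 (6.9444) was almost level with that control, control 4 (6.9445). The log2 difference was -0.09 (95% limits -0.17 and -0.0018, limma adjusted p = 0.338), -0.06 (adjusted p = 0.414) without poly(I:C) 6, and -0.15 (adjusted p = 0.443) with the 3 tissue means held. Psmd5, another base chaperone, was at 7.12 ± 0.32 and 7.30 ± 0.09, a difference of 0.17 (-0.08 to 0.43), and the wide control spread came from control 1 at 6.67 and control 4 at 6.75, with the other 4 controls at 7.28 or more. Psmd9 gave -0.02. Of the interacting proteins, Psmc3ip, known from meiotic recombination, gave 0.06 from a dim row (4.29 ± 0.05 and 4.34 ± 0.05), and Psme3ip1 gave -0.08.

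Single arrays moved many proteasome genes together. Poly(I:C) 6 had the lowest value of all 12 arrays for 21 of the 47 genes (44.7%), against 21.7% of the rows above the median level. These were 11 of the 17 regulatory particle genes, among them the ATPases Psmc2, Psmc3, Psmc4 and Psmc5 and the ubiquitin receptor Psmd4, and 5 of the 16 core genes. For Psmc4 the value was 7.49 in that array and 7.62 in the next lowest, and for Psmc5 6.54 and 6.65. The median deviation from each gene's 12-array mean was -0.14 for the regulatory particle and -0.07 for the core particle in poly(I:C) 6, and -0.04 for the rows above the median level. The regulatory particle was high in poly(I:C) 2 (median deviation 0.11) and poly(I:C) 4 (0.10), where the rows above the median level stood at 0.05 and 0.03. The mean of the septal and pallidal markers in poly(I:C) 6, 5.68, was the lowest of the 12 arrays, and its medium spiny neuron marker mean, 9.76, was the highest; their part in these values was not tested.

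Controls 1 and 4 parted the set in another way. They were the lowest 2 of the 6 controls for 8 genes (17.0%, against 28.4% of the rows above the median level), which were Psma3, Psmb5, Psmc6, Psmd1, Psmd5, Psmd12, Psmd14 and Psme3. They were the highest 2 for 11 genes (23.4%, against 11.7%), among them Psma1, Psmb2, Psmb6, Psmc5 and Psmg1. These pairs of arrays were picked after the values were seen. The cortical marker mean was 6.48 in control 1, the highest control, and 5.54 in control 4, and the choroid plexus and ependymal mean was 4.90 and 5.99. The astrocyte mean was 7.88 and 7.79 in these arrays and higher in the other 4 controls (7.998 to 8.24), and limma's array weights were 0.496 and 0.555, the lowest of the controls, with poly(I:C) 6 at 0.533. Their part in the proteasome values was not tested.

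**Figure D4:**
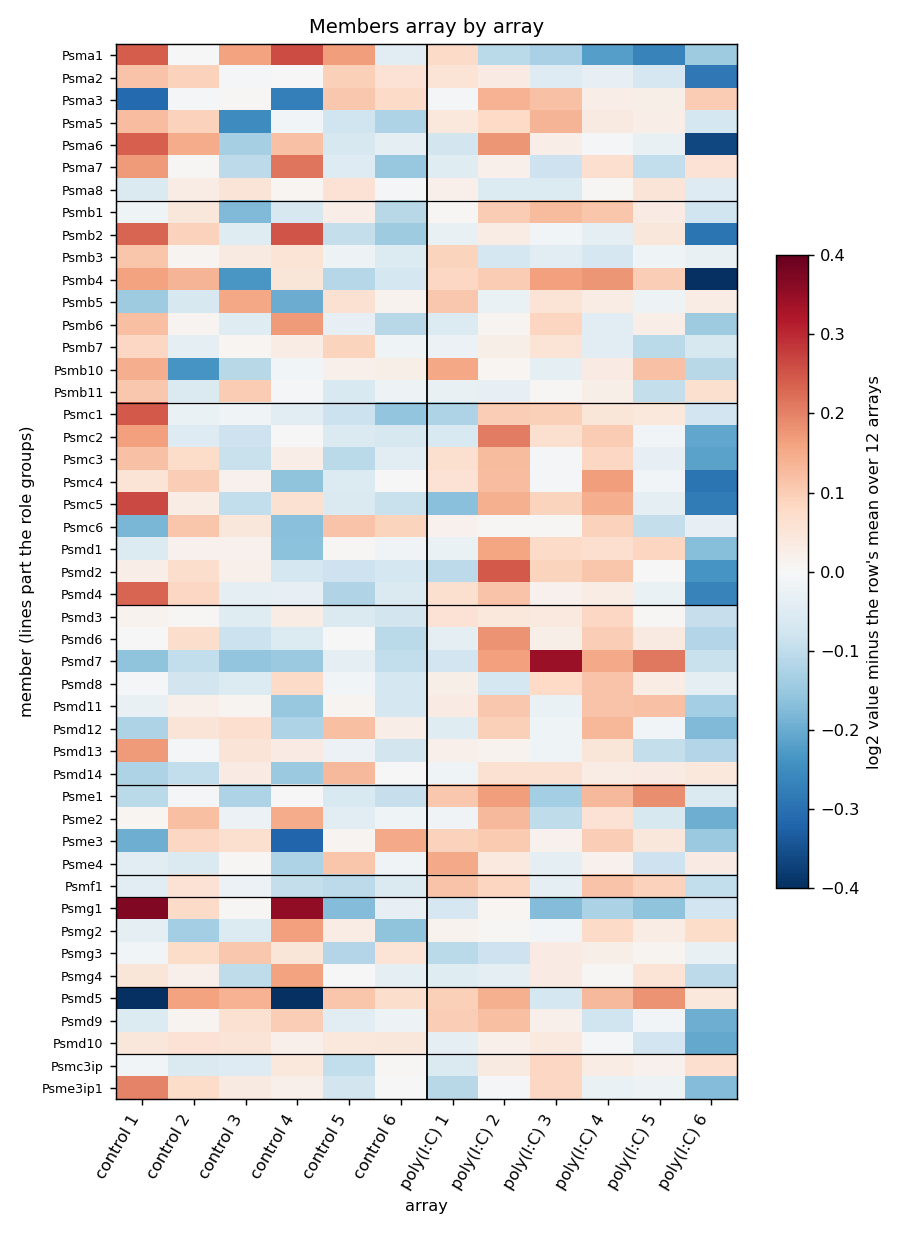
Log2 value minus the gene's own mean over the 12 arrays (colour, from -0.4 in blue to 0.4 in red, with values beyond these in the end colour) for the 47 genes (rows, parted by role) in the 6 control and 6 poly(I:C) arrays (columns). The column of poly(I:C) 6 is the lowest of the 12 for 21 genes, and control 1 and control 4 share low values for Psma3 and Psmd5 and high values for Psma1 and Psmg1.

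For 6 genes the array held more than 1 row, and the rows of each gene gave the same sign. The 3 rows of Psma3 gave 0.16, 0.13 and 0.13. The lower and the higher row gave 0.03 and 0.08 for Psma5, 0.05 and 0.10 for Psmb1, -0.02 and -0.05 for Psmb3, 0.03 and 0.03 for Psmc1, and 0.08 and 0.04 for Psmd2. Rows of 1 gene are annotated with a shared transcript accession, and which of them reads the gene and which a near-identical copy cannot be told from the annotation used here.

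Of 28 genes that work with the proteasome as subunits missed by the symbol rule, assembly factors, regulators or ubiquitin carriers, 18 had a row of their own. In limma 0 of the 18 had an adjusted p under 0.05, and 5 had an unadjusted p under 0.05 (27.8%, against 14.4% of all rows and 19.8% of the rows above the median level), 1 higher and 4 lower. The median difference was -0.03. The group ranges were separate for 1 of the 18, against 1.13% of all rows.

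That gene was Sem1, the smallest subunit of the lid. It was at 6.602, 6.67 and 6.98 in controls and 6.35, 6.44 and 6.55 in the exposed group, so all 6 poly(I:C) arrays lay below the lowest control. The group means were 6.72 ± 0.15 and 6.46 ± 0.08, a log2 difference of -0.26 (95% limits -0.40 and -0.12, limma adjusted p = 0.111). With the 3 tissue means as terms it was -0.27 (adjusted p = 0.460). Psmd7, a lid gene too, had a difference of the opposite sign and similar size.

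The transcription factor Nfe2l1, which raises proteasome genes when the proteasome is impaired, was at 8.50, 8.61 and 8.69 in controls and 8.61, 8.70 and 8.83 in the exposed group, a log2 difference of 0.10 (95% limits 0.01 and 0.20, limma adjusted p = 0.317). With the tissue means as terms it was 0.02. Its relative Nfe2l2, known from the oxidative stress response, was at 6.02, 6.27 and 6.34 in controls and 5.81, 6.07 and 6.13 in the exposed group, a difference of -0.22 (-0.36 to -0.07, adjusted p = 0.192). The ranges of the groups overlapped for both factors.

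Ubqln2 and Ubqln1, which carry ubiquitinated proteins to the proteasome, gave -0.12 (95% limits -0.22 and -0.01, limma adjusted p = 0.302) and -0.08 (-0.16 to -0.0005, adjusted p = 0.344). The core assembly factor Pomp was at 6.23 ± 0.12 and 6.30 ± 0.09, a difference of 0.06 (-0.06 to 0.19). For Pomp it was 0.04 when control 3 or poly(I:C) 4 was left out, but 0.0058 with the 3 tissue means held. Vcp, the ATPase that extracts proteins for degradation, gave 0.07, the ubiquitin-activating enzyme Uba6 gave 0.19 (-0.02 to 0.39), and the proteasome-bound deubiquitinase Uchl5 gave 0.03.

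Factors of the Nfe2l1 and Nfe2l2 type bind the letters TGACNNNGC, and these were sought on both strands of promoter windows from 250 bases before to 50 bases after the RefSeq start (GRCm38.p6). A window was listed for 39 of the 47 genes, and 6 held the letters (15.4%), against 3781 of all 27025 genes with a window. The 6 stretches are shown because they are the whole of what this search found in the set. Each is printed on the gene's sense strand with the match in capitals, which reads GCNNNGTCA where it lies on the opposite strand.
Psmb5 (chr14:54618018-54618058, minus strand gene): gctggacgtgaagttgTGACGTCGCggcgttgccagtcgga
Psmb6 (chr11:70525332-70525372, plus strand gene): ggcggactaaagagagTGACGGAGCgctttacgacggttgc
Psmc6 (chr14:45329581-45329621, plus strand gene): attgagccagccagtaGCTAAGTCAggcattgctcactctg
Psmd12 (chr11:107479278-107479305, plus strand gene): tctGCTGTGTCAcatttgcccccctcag
Psmd9 (chr5:123228143-123228183, plus strand gene): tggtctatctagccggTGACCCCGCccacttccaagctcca
Psme4 (chr11:30771752-30771792, plus strand gene): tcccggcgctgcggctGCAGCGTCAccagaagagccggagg
The match began 47 bases before the start in Psmb5 and 9 in Psmb6, but 227 in Psmc6 and 247 in Psmd12. The 6 genes gave log2 differences from -0.04 to 0.06 with a median of -0.01. Of the 6, 0 had an unadjusted p under 0.05 (limma), against 14.4% of all rows, and 0 had an adjusted p under 0.05. The 33 genes with a window but without the letters had a median of 0.02, and 5 of the 33 had an unadjusted p under 0.05 (limma). Psmd7, with the largest positive difference of the set, had no window listed and so was not searched. With 6 genes these counts cannot set genes with and without the letters apart. A match of letters is not a bound site, and no match says only that the letters are not in this window.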

How the data were processed

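The authors deposited 1 table of 35556 rows with a log2 value for each of 12 Mouse Gene 1.1 ST arrays, made with RMA and Partek 6.6 per the submitters' processing notes; the genome build and the settings of RMA: not given in the sources used here. RMA pulls arrays to a common distribution, so a shift shared by most transcripts would not show. Rows were named from the platform annotation: 21218 had 1 symbol and were tested, 1881 had several and 12457 none listed. Groups came from the sample titles. All 47 members kept their symbol when matched by gene identifier to RefSeq (GRCm38.p6).

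Each row was fitted with limma 3.58.1 in R 4.3.3 (lmFit, eBayes) with the group as the only term (residual degrees of freedom 10, prior 3.94). P-values are two-sided, with Benjamini-Hochberg adjustment over 21218 rows and a threshold of 0.05. No filter and no set test were used. The fit was tested on simulated data in which each row varied independently of the others. That test does not cover arrays that move many genes together, as some did here. The labels name no batch. The number of arrays limits the precision.

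Values in every array are given for the 3 members with the smallest unadjusted p in each of the core particle, regulatory particle and remaining members, and for Psmb5, Psmb6, Psmb7 and Psmb10. Partner genes were the 4 with the smallest p and Psmb8, Psmb9, Pomp and Nfe2l1; Ubqln1, Vcp, Uba6 and Uchl5 were added after their values were seen. The members and all lists were chosen with earlier results of these data known. Alternatives were quantile normalization, rows above the median level only, array weights, a trended and robust prior, a replicate block, 3 tissue marker means as covariates, leaving out control 4 with control 6, the mean row per symbol, all deposited rows, and each array left out.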

Additional observations from a re-analysis of the deposited data

Results flagged for a closer look

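In groups of 6 arrays, 9 of the 108 groups examined (47 members and 7 partner genes in both groups) had 1 array whose gap to its neighbour exceeded Dixon's limit of 0.625 of the group's range; chance gives about 1 in 20, and genes measured on the same array are not independent. Poly(I:C) 6 accounted for 6 of the 9. It was the low array for Psma2 (6.86, next 7.08), Psmb2 (8.59, next 8.85), Psmb4 (8.30, next 8.93), Psmd4 (6.88, next 7.12) and Psme3 (8.93, next 9.10), and the high array for Ubqln2 (8.58, next 8.50). Control 1 was the high control for the ATPase genes Psmc1 (7.82, next 7.56) and Psmc2 (6.67, next 6.51). Poly(I:C) 1 was the high array of its group for Psmb3 (9.83, next 9.72).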

How the results depend on the processing

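The number of members past the adjusted threshold was 0 under all 21 alternatives. In several of these 0 of the rows tested passed, so no member could. These were the fits with the replicate block, the tissue means or all deposited rows, and without control 4 and control 6 together. The others were those without control 4, 5 or 6 or poly(I:C) 2, 3, 4 or 5. The median of the core particle genes kept its sign under all 21 alternatives (-0.05 to -0.01 with 1 array left out, -0.06 to -0.01 otherwise). The median of the regulatory particle genes ran from -0.0045 to 0.07 with 1 array left out and was -0.088 with the 3 tissue means as covariates, the setting in which Psmd11 turned to -0.037. Higher members at an unadjusted p under 0.05 numbered 2, and 1 after quantile normalization, 4 with array weights and 0 with the tissue means; with 1 array left out they ran from 1 to 6. Lower members numbered 4, and 2 among rows above the median level, 2 with array weights, 2 with the trended and robust prior, 10 with the tissue means and 1 without control 4 and control 6; with 1 array left out they ran from 1 to 4. The share of all rows at that p, both directions together, moved with the setting as well. It was 14.4% in the main fit, 14.5% after quantile normalization, 16.9% with array weights and 8.78% with the tissue means. In a separate fit of only the rows above the median level it was 17.8% of those rows, against 19.8% of them in the main fit. The share with the trended and robust prior was 13.9% of all rows. With the replicate block it was 13.2%, and without control 4 and control 6 it was 8.33%. With 1 array left out it ran from 11.05% to 17.13%. The causes of these moves were not tested. The adjusted p ran from 0.0791 to 0.435 for Psma1 and from 0.0784 to 0.609 for Psmd7. Of 6 same-numbered pairs of arrays, 1 had a correlation of deviations over 0.1 (-0.20 to 0.27), and replicate 3 was just under it at 0.099. Such correlations cannot show whether arrays shared a litter or a batch. With the replicate block 0 members passed, 3 were higher and 3 lower at an unadjusted p under 0.05, and 0 of all rows passed, against 13 without it. The 5 members with a mean under the median level are those where array signal is least apart from background.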
